A study of Drosophila melanogaster with 54 samples.

Results

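The 10 genes described here pattern the dorsal and neurogenic ectoderm of the *Drosophila melanogaster* embryo: dpp, scw, sog, tsg, tld, zen, brk, rho, vnd and ind. They were chosen by name and found by symbol in the table of the earliest stage and by FlyBase ID in the other tables, so 10 of the 17558 genes in each table were followed. Of them, sog, tsg, brk and vnd, 4 in all, lie on the X chromosome, and 6 lie on autosomes. All 10 had counts at the blastoderm and gastrula stages.

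Along the back-to-belly axis of the fly embryo, the maternal factor Dorsal enters ventral nuclei and divides the zygotic genome's response into a ventral mesoderm, a lateral neurogenic ectoderm and a dorsal ectoderm. On the dorsal side the BMP ligands Dpp and Scw signal through their receptors, while Sog and Tsg bind the ligands in the space between cells and the protease Tolloid cuts Sog to release them. In the lateral ectoderm, EGF receptor signalling that depends on Rhomboid and the homeodomain factors Vnd and Ind divide the future nerve cord into columns.

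The question of the series is how these and all other genes respond to loss of mof, which encodes a histone acetyltransferase. In males the protein acts on the single X within the male-specific lethal complex, and both sexes use it at other genes within further complexes. Per the labels, embryos with lowered mof came from mothers that carried a maternal alpha-tubulin Gal4 driver (stock 7062) and an RNA interference stock against mof (58281). Controls came from mothers with the same driver and a control RNA interference stock (36304), and both kinds of mother were crossed to their siblings. The driver acts in the mother's germ line, so all embryo groups, controls included, descend from Gal4 mothers, and mof depletion cannot be told apart from a difference in genetic background between the RNA interference stocks.

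Blastoderm embryos of nuclear cycle 14 (St5) gave 4 mof males, 4 control males, 2 mof females and 2 control females. Gastrulating embryos (St7) gave 6 mof males, 7 control males, 4 mof females and 6 control females. Embryos collected at 14 to 16 h (St15) gave 3 mof males, 3 control males, 4 mof females and 3 control females. S2 cells, a male embryonic line with features of macrophages, gave 3 libraries after 3 days with 10 ug of mof double-stranded RNA (dsRNA) and 3 after the same amount against GFP. Each St5 or St7 library is 1 embryo, sexed after sequencing from sex-specific RNAs, and each St15 library is a pool of 25 embryos sorted by an Sxl-GFP marker that all St15 stocks carry. Whether separate cultures stand behind the S2 libraries is not stated, so p-values in S2 cells may measure technical spread only. Depth was 28278799 to 41513416 counts per library at St5, 5504650 to 10024836 at St7, 19018190 to 38076982 at St15 and 20487339 to 38772186 in S2 cells. The St7 libraries were the shallowest.

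Several libraries stood apart from their labels. The libraries labelled mof male 1 and 2 at St5 held 3 and 0 counts on Y-linked genes, against 198 to 383 in the other 6 male libraries, and 469 and 400.0 CPM (counts per 1000000 counts of the library) of Sxl, against 31.6 to 84.1 CPM in the other males. Sxl, the female sex switch, was no higher in the St5 females, at 22.4 and 8.77 CPM in mof females and 32.5 and 34.5 CPM in control females. msl-2, whose protein is made in males, had 73.4 and 65.5 CPM in mof males 1 and 2, 217 and 208 CPM in mof males 3 and 4 and 47.5 to 228 CPM in control males. It had 3.35 and 11.7 CPM in mof females and 3.42 and 1.33 CPM in control females. The St5 females differed from every St5 male library in the egg and early zygotic markers described below. Their Sxl and msl-2 levels therefore cannot settle the sex of mof males 1 and 2. Among St5 females, mof female 2 held 52 Y-linked counts and control female 1 held 40, against 5 and 6 in the others, and St15 mof female 3 held 40. In GEO, the genotype field of the St5 control females names the mof stock, but their mof level was 677 and 531 CPM, so they were kept as controls on their titles. St15 mof libraries carry the mof stock number beside control wording. St15 mof male 1 and control male 2 held 17.5 and 21.2 CPM of the egg transcript bcd, which was at most 0.286 CPM in the other St15 libraries. As the check of the knockdown, mof fell in every embryo comparison, least in St7 females (−1.65 ± 0.49), with 7.02 to 18.0 CPM in mof embryos and 27.7 to 48.4 CPM in controls. In S2 cells it stood at 50.1 to 72.7 CPM with mof dsRNA and 65.9 to 71.8 CPM with GFP dsRNA. The S2 change of −0.17 ± 0.16 did not pass (adjusted p = 0.491, edgeR's quasi-likelihood test).

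St5 embryos also differed in how far development had gone. The summed level of 9 egg transcripts (bcd, osk and others loaded by the mother) was 237 to 471 CPM in mof males and 138 to 381 CPM in control males. It was 3030 to 3648 CPM in mof females and 4076 to 4261 CPM in control females. The 8 early zygotic genes, which act as cells form at the blastoderm, ran the other way, with 8252 to 10540 CPM in mof males, 9312 to 10420 CPM in control males, 1954 to 3162 CPM in mof females and 881 to 971 CPM in control females. All 9 egg transcripts had counts in each of these groups, and of the 8 early zygotic genes only Sry-alpha was at 0 in the 12 St5 libraries. These markers separate the St5 sexes completely. Both sums also separate the mof females from the control females without overlap, while they overlap between mof and control males. The part of these markers in the sex and mof differences below was not tested. In whole embryos, fewer cells of a type and less RNA per cell cannot be told apart.

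Levels between genes are compared per kilobase of merged exon (RPKM), here in the St5 control groups. In St5 control males zen was highest at 154.6 RPKM, followed by tsg at 68.5, tld at 60.3, scw at 28.6, sog at 20.2 and brk at 17.7 RPKM. Below these came dpp at 12.7, rho at 11.5 and vnd at 7.50 RPKM, with ind last at 0.232 RPKM. The libraries of neighbours in this order overlapped except between zen and tsg, tld and scw, and vnd and ind. In St5 control females the order was another one: scw, zen and tsg led at 50.8, 47.9 and 44.2 RPKM and overlapped one another, tld followed at 6.25 RPKM, and the other 6 genes were at or under 1.19 RPKM.

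At St7 ind, which specifies the intermediate column of the nerve cord, was the highest member per length, at 68.2 ± 9.58 RPKM in control males (SD, n = 7) and 62.3 ± 12.2 RPKM in control females (SD, n = 6). Its libraries did not overlap those of the next gene, sog, at 31.9 ± 5.49 RPKM in control males and 37.5 ± 5.17 RPKM in control females. The last gene was scw, at 0.665 ± 0.473 RPKM in males and 0.797 ± 0.251 RPKM in females. At St15 rho led at 22.5 RPKM in control males and 20.1 RPKM in control females, and brk, dpp, sog and vnd lay between 6.77 and 9.64 RPKM in both. In S2 cells brk led at 28.6 RPKM after mof dsRNA and 30.0 RPKM after GFP dsRNA, followed without overlap by rho at 7.26 and 6.64 RPKM and sog at 2.70 and 3.93 RPKM. Stage and table cannot be told apart, so no test between stages was made.

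The first comparison asks how blastoderm embryos with depleted maternal mof differ in these genes, beginning with males. Of the 10 genes, 1 rose in St5 mof males, tld, and none fell; 13.8% of the 9103 genes tested passed in this comparison. All 10 log2 fold changes were above 0, with a median of 0.67 against −0.01 over all genes tested. Without the libraries labelled mof male 1 and 2, 2 of them lay below 0, zen at −0.06 and scw at −0.28. Fold changes are edgeR log2 fold changes ± SE, tested by its quasi-likelihood test with Benjamini-Hochberg adjustment over all genes tested, and a gene passed at an adjusted p under 0.05. CPM values are per total count, while fold changes use TMM scaling, whose factors were 0.850 to 0.881 in St5 mof males and 0.895 to 1.113 in control males, so a fold change can exceed the ratio of the CPM means. For dpp the signs differ: its fold change was 0.20 ± 0.30, while its mean level was 63.2 CPM in mof males and 66.1 CPM in control males.

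tld (chromosome 3R, 24749731 to 24753510) encodes Tolloid, the protease that cuts Sog. It stood at 279, 289, 239 and 224 CPM in the 4 St5 mof males and at 195, 217, 196 and 202 CPM in the 4 control males. Every mof male was above every control male. The change was 0.58 ± 0.16 (adjusted p = 0.0337, edgeR). Without the libraries labelled mof male 1 and 2, whose sex is in doubt, it was 0.43 with an adjusted p of 0.206, so no member passed in that fit. Its call was also lost without any 1 of control males 1, 2 and 4 or mof males 1, 2 and 3 (changes of 0.51 to 0.61, adjusted p of 0.0594 to 0.0871, edgeR).

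The ligand dpp (chromosome 2L, 2428372 to 2459823) had 57.0, 54.2, 71.4 and 70.3 CPM in St5 mof males and 68.8, 76.9, 33.3 and 85.5 CPM in control males. scw (chromosome 2L, 19699379 to 19700968), the second BMP ligand of the early embryo, had 61.9, 150.5, 35.6 and 30.7 CPM in mof males and 30.7, 32.1, 88.7 and 30.4 CPM in control males. Neither gene separated the groups, and 1 library in each group carried a scw level above the rest: mof male 2 and control male 3. Control male 3 also had the lowest dpp, sog, rho and brk of its group, and its 9 egg transcripts summed to 381 CPM against 138 to 207 CPM in the other 3 control males. Without control male 3 the change of scw was 1.45 (adjusted p = 0.0418, edgeR), and without mof males 1 and 2 it was −0.28 (adjusted p = 0.76).

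sog (chromosome X, 15603283 to 15633434), the BMP antagonist made in the neurogenic ectoderm, had 156, 129, 163 and 285 CPM in St5 mof males and 120, 104, 49.4 and 248 CPM in control males (0.77 ± 0.39, adjusted p = 0.192, edgeR). tsg (chromosome X, 11988062 to 11988948), whose product binds Sog and the ligand, had 69.4, 98.5, 63.1 and 60.9 CPM in mof males and 65.0, 65.8, 66.4 and 45.7 CPM in control males. The groups overlapped for both genes. zen (chromosome 3R, 6752864 to 6754194), a homeobox gene that BMP signalling refines to the dorsal midline, ranged from 136 to 349.9 CPM in mof males and from 176 to 220.3 CPM in control males.

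In the lateral ectoderm, brk (chromosome X, 7307939 to 7311132), a repressor of BMP target genes, had 69.3, 95.4, 61.7 and 88.1 CPM in St5 mof males and 58.2, 65.1, 23.8 and 79.0 CPM in control males (0.74 ± 0.28, adjusted p = 0.0887, edgeR). vnd (chromosome X, 582121 to 598151), which specifies the ventral column, had 45.9, 48.1, 31.3 and 44.0 CPM in mof males and 26.3, 32.8, 31.6 and 39.0 CPM in control males (0.62 ± 0.25, adjusted p = 0.109). Both genes overlapped between groups and missed the threshold. rho (chromosome 3L, 1463811 to 1468944), the protease that releases an EGF receptor ligand, had 34.0 to 58.9 CPM in mof males and 6.26 to 52.6 CPM in control males. ind (chromosome 3L, 15042799 to 15043924) had 4 to 31 counts in mof males and 0 to 20 in control males, and did not pass (0.96 ± 0.93, adjusted p = 0.519).

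**Figure D1:**
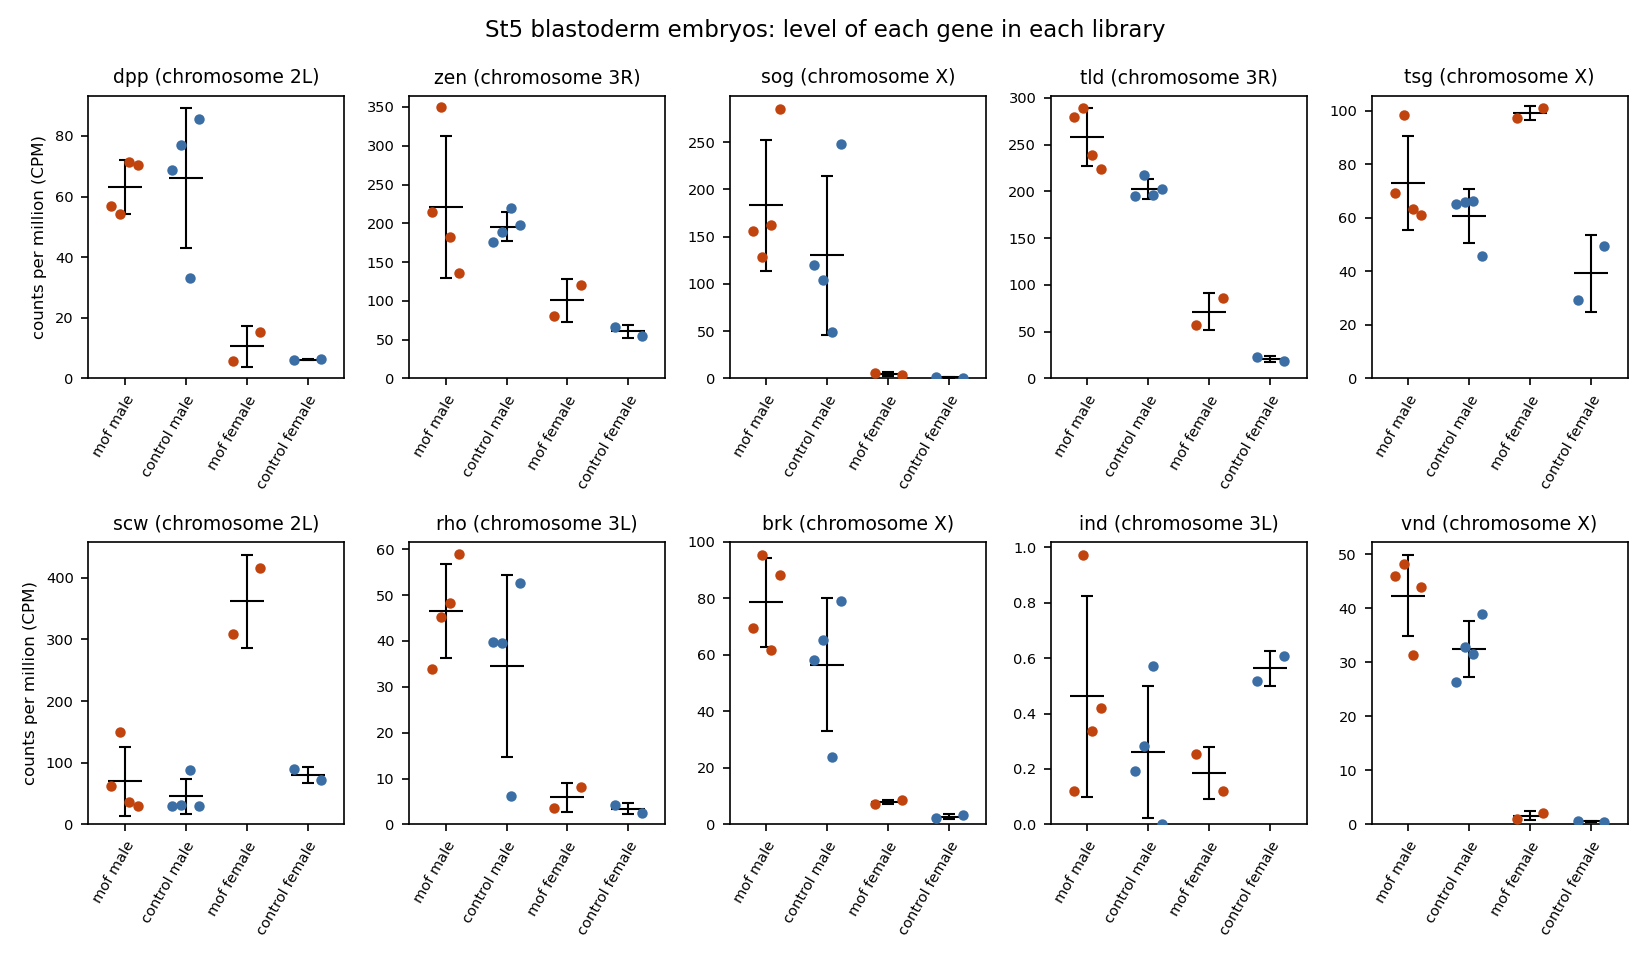
Level of the 10 genes in each St5 library, in CPM from 0, 1 panel per gene with its chromosome. Each dot is 1 embryo (mof in orange, controls in blue), and the bar and whiskers are mean and SD. tld separates mof males (224 to 289 CPM) from control males (195 to 217 CPM), and scw is highest in the 2 mof females (308 and 416 CPM).

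The females of the same stage come next. In St5 mof females 3 of the 10 genes rose, tld, tsg and vnd, and none fell, against 4.04% of all genes tested passing. Of the 10 fold changes, 9 were above 0, with a median of 1.48 against 0 over all genes. tld had 57.5 and 85.7 CPM in mof females and 23.4 and 18.6 CPM in control females (1.82 ± 0.23, adjusted p = 0.00236, edgeR). tsg had 97.3 and 101 CPM in mof females and 29.1 and 49.4 CPM in control females (1.39 ± 0.33, adjusted p = 0.0354). vnd had 1.06 and 2.19 CPM in mof females and 0.622 and 0.470 CPM in control females (1.63 ± 0.40, adjusted p = 0.0418). Both mof females were above both controls for each of the 3 genes, and vnd rested on 17 to 91 counts per library. The egg and early zygotic sums also separated mof from control females, and their part in the female differences was not tested.

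Other members of St5 females separated the libraries without passing. scw had 308 and 416 CPM in mof females and 89.7 and 71.7 CPM in control females (2.21 ± 0.77, adjusted p = 0.133, edgeR). sog had 6.16 and 3.52 CPM in mof females and 1.28 and 0.746 CPM in control females (2.29 ± 0.62, adjusted p = 0.0616). brk had 7.4 and 8.5 CPM in mof females and 2.18 and 3.34 CPM in control females (1.57 ± 0.41, adjusted p = 0.0526). DESeq2 passed these 3 genes as well, at adjusted p of 0.0343 for scw, 0.00584 for sog and 0.00547 for brk. zen had 81.1 and 120.5 CPM in mof females and 66.3 and 55.0 CPM in control females. dpp and rho overlapped between the groups, and ind had 10 and 5 counts in mof females and 15 and 22 in controls.

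With 2 libraries a group, single libraries decided most of these calls. Leaving out either control female or either mof female ended the call of tsg (adjusted p of 0.0666 to 0.298, edgeR), and vnd passed only without mof female 1. In a fit of only the groups compared vnd did not pass either (1.65, adjusted p = 0.08). tld passed without each of the 4 libraries in turn, at 2.03 without control female 1 and 1.45 without mof female 2, the 2 females with Y-linked counts. The difference of the mof effect between the sexes passed for 0 of the 10 genes by edgeR, with 3 at an unadjusted p under 0.05 and 1 by DESeq2, and for 0.121% of all genes. The member passed by DESeq2 was tld, whose effect in males less that in females was −1.24 ± 0.28 by edgeR (adjusted p = 0.0994), and −1.53 without mof female 1 (adjusted p = 0.0235).

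The blastoderm controls of the 2 sexes were far apart. Of the 10 genes, 8 were higher in St5 control males than in control females, and none was lower; 62.0% of all genes tested passed here. The median difference of the 10 genes was 3.45, against 0.32 over all genes with TMM scaling and 0.45 with RLE scaling. sog differed most, with 120, 104, 49.4 and 248 CPM in the 4 control males and 1.28 and 0.746 CPM in the 2 control females (7.14 ± 0.71, adjusted p = 7.79e-06, edgeR). vnd differed by 6.06 ± 0.43, with 26.3 to 39.0 CPM in males and 0.622 and 0.470 CPM in females. brk differed by 4.49 ± 0.44, dpp by 3.56 ± 0.45, rho by 3.45 ± 0.70, tld by 3.44 ± 0.24 and zen by 1.88 ± 0.35. For each of these 7 genes every male was above both females.

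Only tsg, the eighth, overlapped between the sexes, at 45.7 to 66.4 CPM in males and 29.1 and 49.4 CPM in females (0.83 ± 0.29, adjusted p = 0.0252, edgeR), and its call was lost without control female 1 (0.50, adjusted p = 0.252). scw had 30.4 to 88.7 CPM in males and 71.7 and 89.7 CPM in females (−0.59 ± 0.63) and did not pass. All 4 genes on X were higher in males, while the median of the 1510 X genes tested was −0.31 and 22.4% of them were higher. The sexes cannot be told apart from developmental progress at St5, given the egg and early zygotic sums above.

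**Figure D2:**
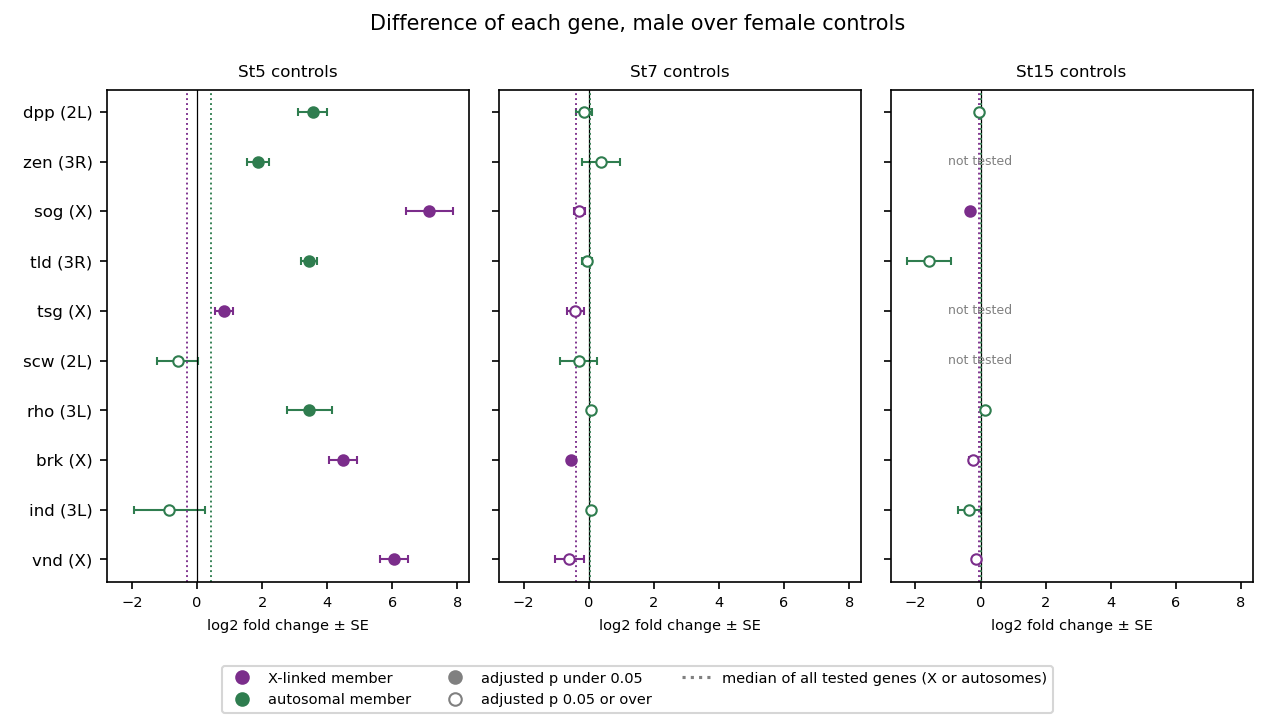
Difference between control males and control females for each gene at St5, St7 and St15, as log2 fold change ± SE (male over female) on 1 shared axis. Filled symbols passed, purple marks X-linked genes, and dotted lines are medians of all tested X or autosomal genes. The 8 genes that passed at St5 lie at 0.83 to 7.14, against brk alone passing at St7 (−0.55) and sog alone at St15 (−0.33).

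At St7 the groups overlapped in the summed egg markers, at 162 to 196 CPM in mof males, 136 to 185 CPM in control males, 149 to 204 CPM in mof females and 150 to 179 CPM in control females. The early zygotic sum overlapped in males. In females it did not, at 331 to 390.3 CPM in mof embryos and 260 to 315 CPM in controls. In mof males 1 of the 10 genes rose, dpp, and none fell, against 25.2% of the 8717 genes tested. In mof females no member passed by edgeR, with 2 at an unadjusted p under 0.05 and 1 by DESeq2, against 27.8% of all genes. The median fold change of the 10 genes was −0.03 in males (all genes −0.02) and −0.23 in females (all genes −0.05).

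dpp had a median of 104.9 CPM in the 6 St7 mof males, with a lowest value of 54.9 and a highest of 154, against a median of 74.7 CPM in the 7 control males, from 37.0 to 117 CPM (0.67 ± 0.24, adjusted p = 0.0416, edgeR). In the 4 mof females it had 108, 162, 119 and 66.4 CPM, against a median of 76.2 CPM in the 6 control females, from 64.2 to 92.2 CPM (0.62 ± 0.27, adjusted p = 0.0921). The groups overlapped in both sexes: 2 of the 6 mof males lay above every control male, and 3 of the 4 mof females above every control female. In males the call was lost without any 1 of 5 libraries: control male 2 or 5, or mof male 1, 2 or 5 (adjusted p of 0.0526 to 0.0795, changes of 0.58 to 0.70), and also with no low count filter (adjusted p = 0.051) or in a fit of only the groups compared (adjusted p = 0.0762). In females dpp passed without mof female 4 (0.85, adjusted p = 0.019). DESeq2 passed dpp in females (0.67, adjusted p = 0.0394).

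Levels of zen and dpp in the same St7 embryos are given side by side. The 6 mof males had 17.0, 2.31, 25.7, 4.36, 1.35 and 37.5 CPM of zen, and 95.9, 113, 54.9, 137, 154 and 96.4 CPM of dpp in the same order. The 7 control males had 20.6, 31.1, 32.7, 3.95, 28.4, 32.3 and 12.8 CPM of zen, and 37.0, 53.7, 74.7, 117, 62.6, 82.7 and 88.5 CPM of dpp. The embryo lowest in zen was highest in dpp among mof males (1.35 and 154 CPM) and among control males (3.95 and 117 CPM). The control male lowest in dpp, at 37.0 CPM, had 20.6 CPM of zen, below most of its group. A relation between zen and dpp was not tested. Mof females had 2.86, 3.38, 4.78 and 18.4 CPM of zen, with the highest zen in the embryo that was lowest in dpp, mof female 4. In control females zen ranged from 9.87 to 20.9 CPM. The changes of zen, −0.50 ± 0.60 in males and −1.16 ± 0.74 in females (adjusted p = 0.262 in females, edgeR), did not pass. The sum of the 8 early zygotic genes, which fall as gastrulation proceeds, was 279 to 359 CPM in mof males, 234 to 312 CPM in control males, 331 to 390.3 CPM in mof females and 260 to 315 CPM in control females. Its part in the dpp result and in the other St7 mof differences was not tested.

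Of the extracellular partners of dpp, tld did not pass at St7. It had a median of 36.6 CPM in mof males, from 23.6 to 47.8, and 38.6 CPM in control males, from 33.6 to 43.2 (0.02 ± 0.15). In mof females it had 32.7, 29.4, 33.3 and 50.7 CPM, against 34.7 to 41.9 CPM in control females (0.03 ± 0.17). Neither change was larger than its error. tsg had a median of 9.36 CPM in mof males, from 6.72 to 12.4, and 14.2 CPM in control males, from 8.34 to 27.5 (−0.60 ± 0.27, adjusted p = 0.108, edgeR). In mof females tsg had 10.1, 5.91, 12.3 and 19.7 CPM, against a median of 20.7 CPM in control females, from 13.5 to 27.7 (−0.69 ± 0.31, adjusted p = 0.104). Most mof embryos of either sex were in the lower part of the control range or below it, yet the groups overlapped. Without mof female 4 the female change was −0.98 (adjusted p = 0.0301). sog had a median of 162 CPM in mof males and 193 CPM in control males, and 176 CPM in mof females and 249 CPM in control females, with overlap in both sexes and no pass (−0.08 ± 0.16 in males, −0.33 ± 0.19 in females). scw had 0 to 18 counts per library and did not pass (−0.63 ± 0.61 in males, −0.72 ± 0.70 in females).

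Of the neurogenic genes, rho had a median of 75.8 CPM in St7 mof males, from 68.5 to 90.5, and 78.5 CPM in control males, from 69.0 to 88.2 (0.13 ± 0.09). In mof females it had 73.1, 73.2, 58.8 and 78.8 CPM, against 64.8 to 79.9 CPM in control females (0.09 ± 0.10). ind had a median of 81.9 CPM in mof males, from 71.4 to 90.5, and 76.8 CPM in control males, from 64.7 to 94.7 (0.22 ± 0.11, adjusted p = 0.143, edgeR), with nearly the same change in females (0.23 ± 0.13). Without control male 1 the male change of ind passed (0.31, adjusted p = 0.0444), as did the female change without control female 6 (0.35, adjusted p = 0.039). ind had 420 to 873 counts per St7 library, against at most 31 in any St5 library.

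brk, on X, had a median of 58.5 CPM in mof males, from 51.5 to 67.9, and 57.9 CPM in control males, from 54.1 to 66.4 (0.10 ± 0.08). In mof females it had 65.9, 69.1, 76.1 and 78.0 CPM, against a median of 83.2 CPM in control females, from 75.8 to 92.2 (−0.13 ± 0.10). vnd varied widely within groups, from 10.4 to 33.5 CPM in mof males, 3.35 to 43.4 CPM in control males, 8.69 to 41.2 CPM in mof females and 12.2 to 52.0 CPM in control females. No difference in vnd was larger than this spread.

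**Figure D3:**
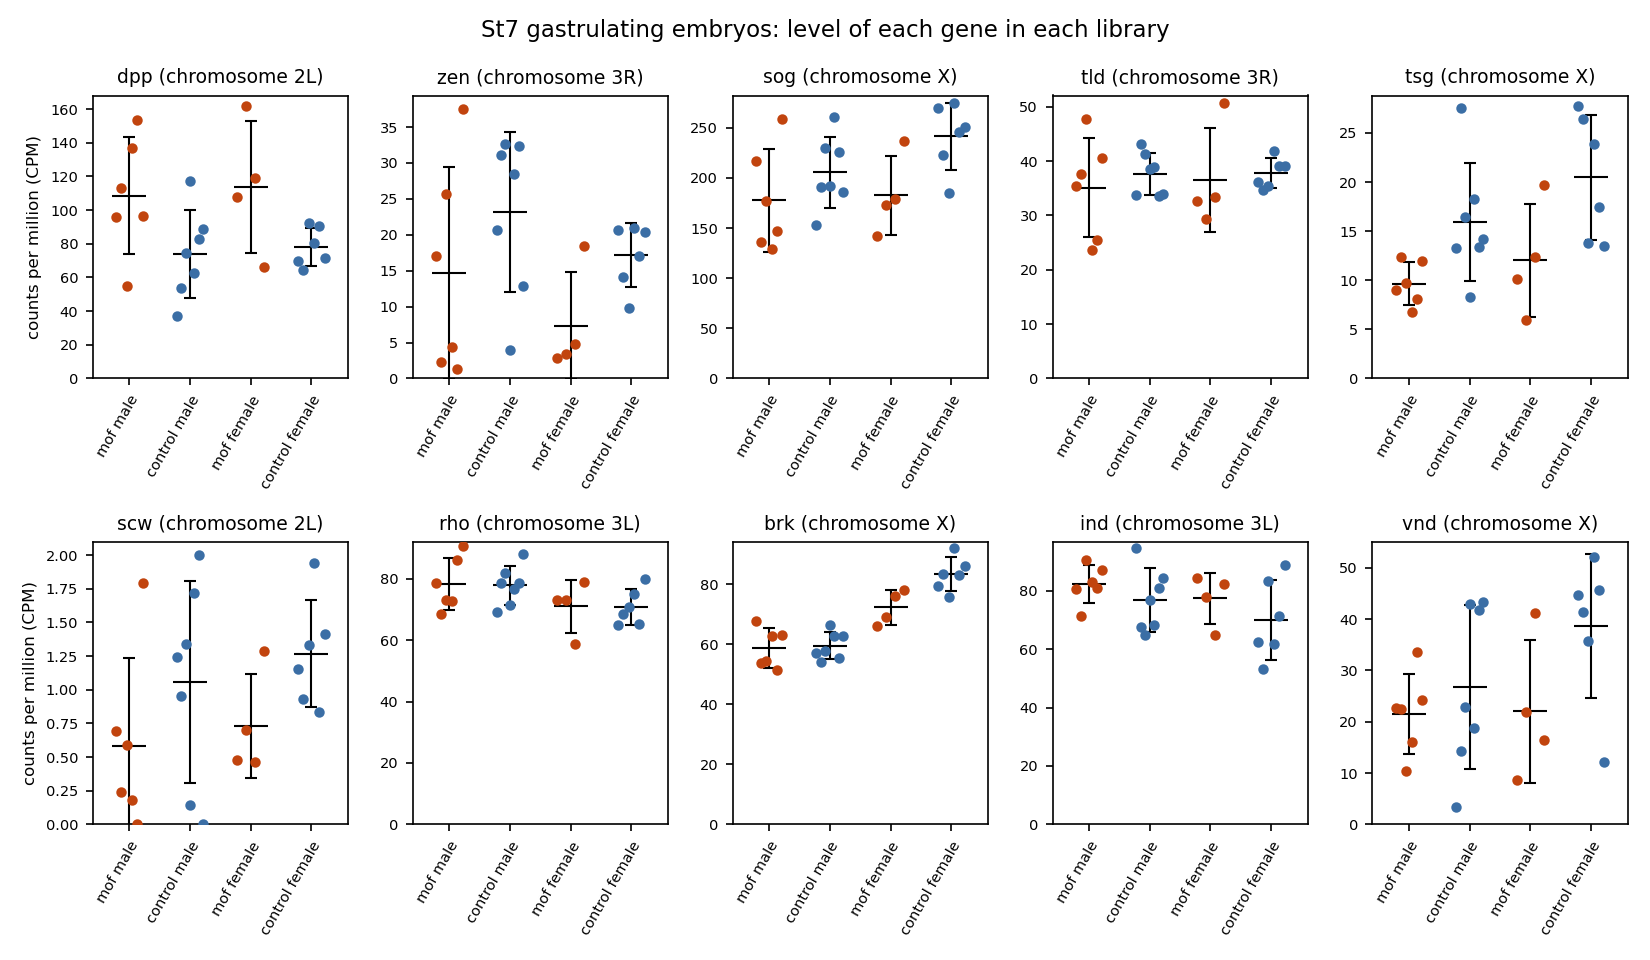
Level of the 10 genes in each St7 library, in CPM from 0, 1 panel per gene. Each dot is 1 embryo, and the bar and whiskers are mean and SD, with whiskers ending at 0 where the SD exceeds the mean. brk in control males (54.1 to 66.4 CPM) lies below control females (75.8 to 92.2 CPM), while zen and vnd scatter within every group.

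Between the sexes of St7 controls, 1 of the 10 genes differed, brk, and it was lower in males; 6.22% of all genes tested passed. brk averaged 59.5 ± 4.55 CPM in the 7 control males and 83.3 ± 5.63 CPM in the 6 control females (SD; −0.55 ± 0.08, adjusted p = 9.43e-05, edgeR). The male libraries all lay below the female ones, and the call held without each of the 13 libraries in turn. The other 3 X-linked members were also below 0, sog at −0.29 ± 0.16, tsg at −0.42 ± 0.26 and vnd at −0.59 ± 0.44, without passing. Their values are near the median of 1444 X genes, −0.40, of which 30.8% passed as lower in males. The autosomal members lay between −0.31 and 0.37 and none passed. At St7 a sex difference in the mof effect passed for 0 of the 10 genes by edgeR, with 0 at an unadjusted p under 0.05 and 0 by DESeq2, as it did for 0% of all genes by edgeR, with 318 genes unadjusted and 1 by DESeq2.

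By St15, late in embryonic development, 3 early genes were at or near 0. tsg had 0 counts in all 13 libraries, which allows up to 0.0101 CPM (3 counts over the table, counting error only). zen had 0 to 4 counts and scw 0 to 2 counts per library. These 3 genes were not tested, and tld (3 to 54 counts) and ind (12 to 47 counts) were tested at very low levels. dpp, sog, rho, brk and vnd were still present.

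In St15 mof males 1 of the 7 tested members fell, vnd, and none rose; 34.3% of the 10684 genes tested passed. vnd had 22.5, 22.1 and 22.1 CPM in mof males and 31.5, 26.5 and 29.8 CPM in control males (−0.40 ± 0.08, adjusted p = 0.00207, edgeR). All 3 mof males were below all 3 control males, also without mof male 1 (−0.40) or control male 2 (−0.46), the libraries with egg transcript. Of the 1696 X genes tested, 63.7% fell in these males, with a median of −0.52, a background against which the fall of vnd is read. The 5 neuron genes elav, nSyb, brp, Syt1 and cpx, all above 0, summed to 1042 to 1088 CPM in mof males and 1116 to 1183 CPM in control males, and the part of this in the vnd result was not tested.

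The other X-linked members tested did not pass. sog had 55.0, 55.6 and 55.2 CPM in St15 mof males and 47.3, 51.3 and 50.02 CPM in control males (0.16 ± 0.06, adjusted p = 0.0578, edgeR), with all mof males above all controls. brk had 24.8, 25.2 and 18.5 CPM in mof males and 26.3, 24.8 and 24.7 CPM in control males (−0.15 ± 0.13). Among autosomal members, dpp stood at 38.6 to 42.3 CPM in mof males and 39.5 to 42.2 CPM in control males (0.00 ± 0.07). rho had 83.1, 77.7 and 58.6 CPM in mof males and 66.9, 69.4 and 65.8 CPM in control males (0.12 ± 0.10). One library, mof male 4, lay below the controls, and without it the change of rho was 0.27 (adjusted p = 0.00781, edgeR). Without mof male 1, which was highest in rho and held egg transcript, the change was 0.02 (adjusted p = 0.893, edgeR).

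In St15 mof females 1 of the 7 tested members rose, sog, and 1 fell, tld, against 26.0% of all genes. sog had 63.8, 74.9, 70.2 and 69.1 CPM in mof females and 59.8, 64.9 and 61.5 CPM in control females (0.22 ± 0.06, adjusted p = 0.0139, edgeR). The groups overlapped through mof female 1, and the call was lost without control female 2 (0.17, adjusted p = 0.12) or control female 4 (0.20, adjusted p = 0.0556). It held without mof female 3, the library with Y-linked counts (0.20, adjusted p = 0.0407). The fall of tld was −1.82 ± 0.62 (adjusted p = 0.0474), with 0.315, 0.499, 0.142 and 0.426 CPM in mof females and 0.716, 2.84 and 0.362 CPM in control females. Control female 3 was far above the other 6 libraries, and without it the change was −0.60 (adjusted p = 0.461). Without any 1 of the other libraries except control female 4 the call was also lost, at −2.15 to −1.61 (adjusted p of 0.0557 to 0.104, edgeR). vnd had 26.8 to 29.1 CPM in mof females and 30.4 to 33.6 CPM in control females, apart but not past the threshold (−0.14 ± 0.08, adjusted p = 0.191).

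**Figure D4:**
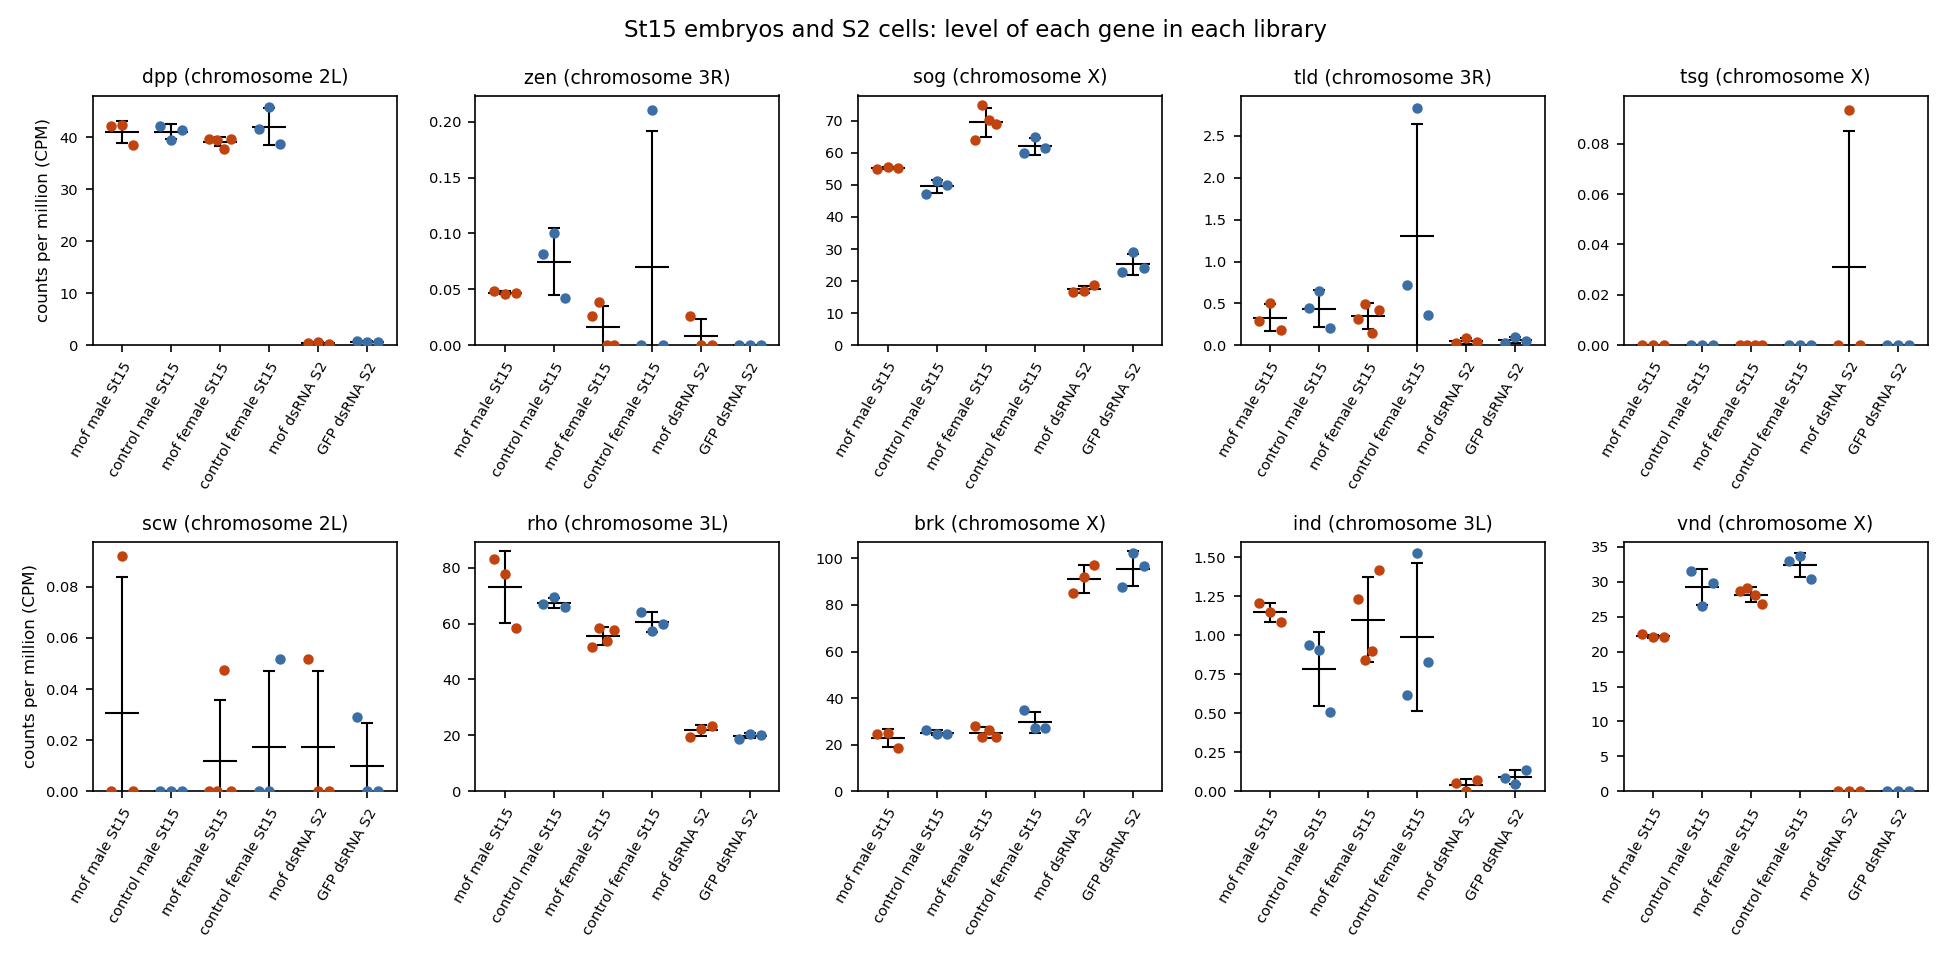
Level of the 10 genes in each St15 library (pools of 25 embryos) and each S2 library, in CPM from 0, 1 panel per gene. Dots are libraries, and the bar and whiskers are mean and SD. vnd in St15 mof males (22.1 to 22.5 CPM) lies below control males (26.5 to 31.5 CPM), sog in S2 cells after mof dsRNA (16.6 to 18.7 CPM) lies below GFP dsRNA (22.8 to 29.0 CPM), and the 1 high tld value is control female 3.

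Between the sexes of St15 controls 1 of the 7 tested members differed, sog, which was lower in males; 1.30% of all genes passed. It had 47.3, 51.3 and 50.02 CPM in control males and 59.8, 64.9 and 61.5 CPM in control females (−0.33 ± 0.06, adjusted p = 0.02, edgeR), with no overlap. The call was lost without any 1 of 5 of the 6 libraries (adjusted p of 0.0562 to 0.0918, changes of −0.31 to −0.36). Of X genes 5.66% were lower in males. The difference of the mof effect between the sexes passed for 0 of the 7 members by edgeR, with 1 at an unadjusted p under 0.05 and 0 by DESeq2, against 16.7% of all genes and 848 of 1696 X genes in the negative direction. The member with the unadjusted p was vnd, at −0.26 ± 0.11 (adjusted p = 0.131, edgeR). It passed without control male 2 (−0.30, adjusted p = 0.0457), as did rho without mof male 4 (0.36, adjusted p = 0.0115). Without mof male 1, a library with egg transcript, neither passed. The differences were then −0.24 for vnd and 0.11 for rho (adjusted p of 0.194 and 0.643, edgeR).

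In S2 cells 4 members were tested, and sog fell while the other 3 did not pass; 23.4% of 9676 genes tested passed. sog had 16.6, 16.9 and 18.7 CPM after mof dsRNA and 22.8, 29.0 and 24.0 CPM after GFP dsRNA (−0.53 ± 0.09, adjusted p = 0.00249, edgeR). The libraries did not overlap, and the call held without each of the 6 in turn. Of 1593 X genes 37.0% fell, with a median of −0.19. The level of mof itself averaged 61.2 CPM with mof dsRNA and 69.4 CPM with GFP dsRNA and did not pass, so the S2 changes are read without a measured knockdown. brk, the second X-linked member tested, had 85.0, 91.8 and 97.0 CPM with mof dsRNA and 87.8, 102 and 96.6 CPM with GFP dsRNA (−0.07 ± 0.06). rho had 19.5 to 23.4 CPM with mof dsRNA and 18.9 to 20.6 CPM with GFP dsRNA (0.13 ± 0.07). dpp had 9 to 17 counts with mof dsRNA, against 13 to 26 with GFP dsRNA, with no overlap in CPM (−0.63 ± 0.30, adjusted p = 0.147, edgeR). The hemocyte genes, markers of the macrophage-like state of this line, summed to 11090 to 11640 CPM with mof dsRNA and 7784 to 10680 CPM with GFP dsRNA, with all 8 detected in both, and their part in the sog result was not tested.

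**Figure D5:**
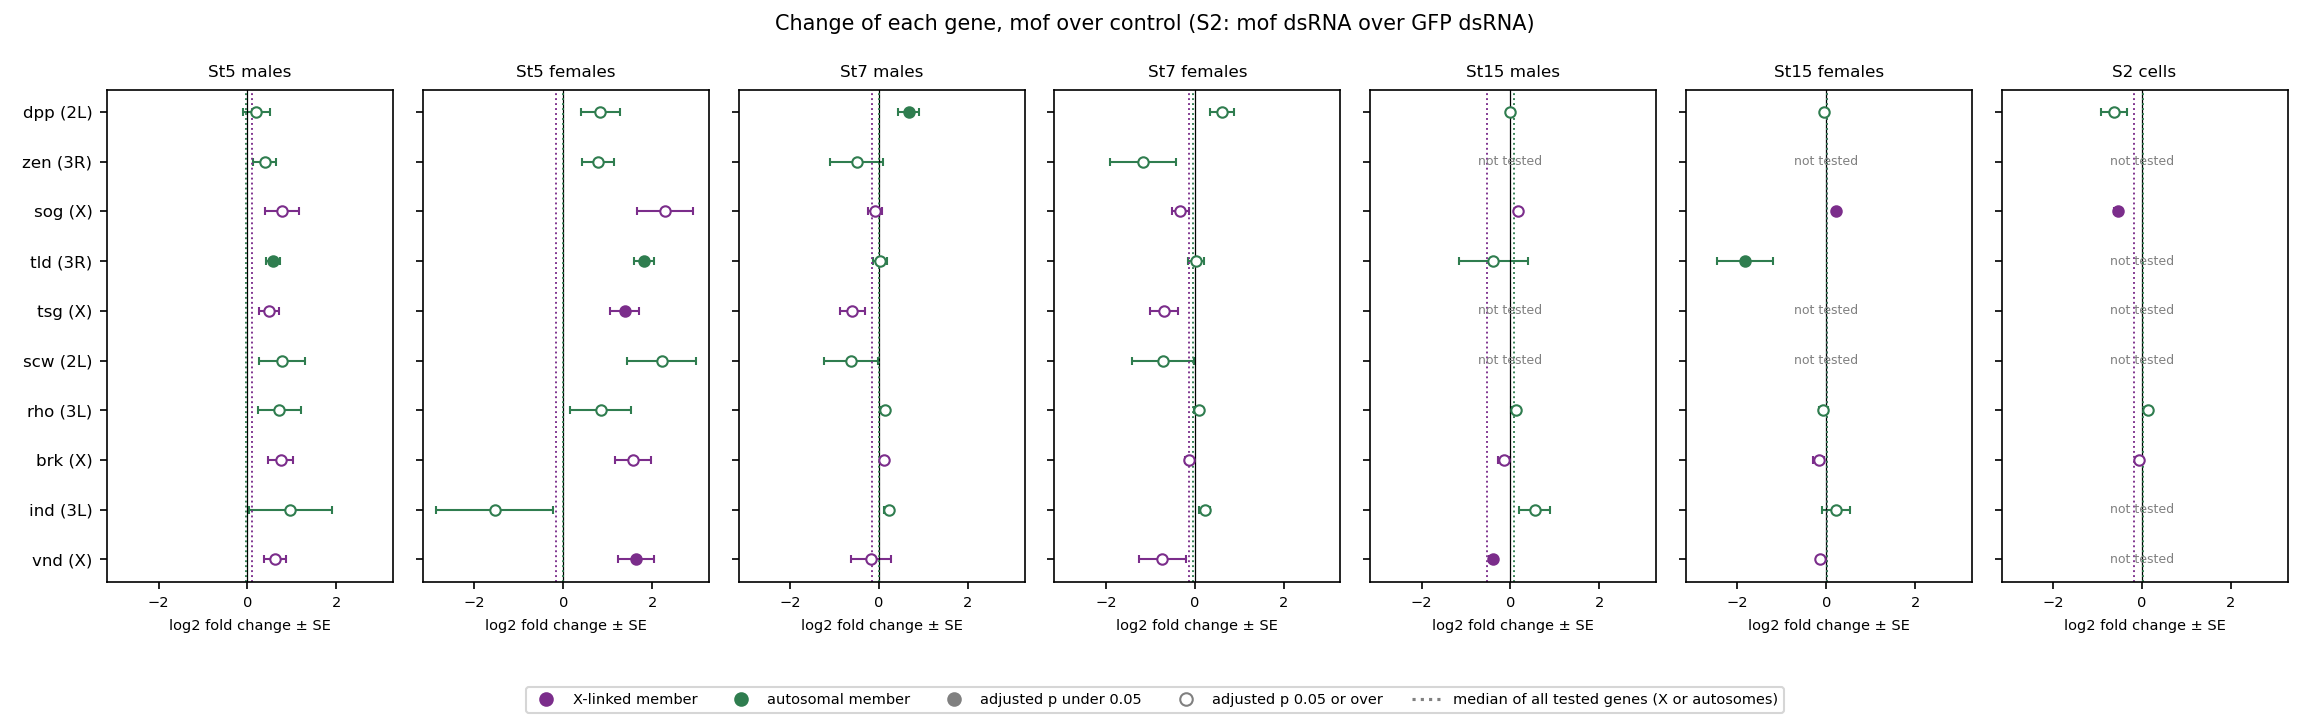
Change of each gene in the 7 mof comparisons as log2 fold change ± SE (mof over control, or mof dsRNA over GFP dsRNA in S2 cells), on 1 shared axis. Filled symbols passed, purple marks X-linked genes, dotted lines are medians of all tested X or autosomal genes, and genes under the count filter are marked as not tested. At St5 all 10 male values lie above 0, and at St15 sog and brk lie right of the X median of −0.52 in males while vnd lies near it.

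The 4 X-linked members can be followed through the mof comparisons of males. sog changed by 0.77 at St5, −0.08 at St7 and 0.16 at St15 and passed in none of these. In the male S2 line, where the change of mof itself did not pass, sog fell by 0.53. brk changed by 0.74, 0.10 and −0.15 at the 3 stages and by −0.07 in S2 cells, and never passed. vnd changed by 0.62, −0.19 and −0.40, the last of which passed. tsg changed by 0.48 at St5 and −0.60 at St7, and was at 0 counts at St15. The St5 values include the libraries labelled mof male 1 and 2, whose sex is in doubt. Without them sog changed by 1.07, brk by 0.68, vnd by 0.46 and tsg by 0.26, and none passed.

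Other genes of the same pathways, taken from lists chosen by function, were counted beside the members. Of 13 tested BMP pathway genes other than the members (14 listed: receptors, Smad proteins and extracellular regulators), none passed in St5 mof males by edgeR, with 0 at an unadjusted p under 0.05 and 0 by DESeq2, and 2 rose in St5 mof females, the inhibitory Smad gene Dad (4.11 ± 0.65, adjusted p = 0.00573, edgeR) and the tsg paralogue srw (2.42 ± 0.61, adjusted p = 0.0489). At St7 6 of the 13 rose in mof males and 6 in mof females, and none fell. dally and dlp, the glypicans that bind BMP ligands at the cell surface, led in both sexes: dally changed by 0.69 ± 0.17 in males and 0.93 ± 0.19 in females, and dlp by 0.55 ± 0.14 in males and 0.88 ± 0.16 in females. The list median was 0.26 in males and 0.35 in females, against −0.02 and −0.05 over all genes. Of all 8717 genes tested, 866 rose in St7 mof males (9.93%) and 959 in St7 mof females. At St5, 6.51% of all genes rose and 7.33% fell in mof males, and 2.24% rose and 1.80% fell in mof females. At St15 2 of 12 rose and 1 fell in males, the X-linked cv (−0.68 ± 0.09), while 1 rose in females, shn. In S2 cells 2 of 12 fell, cv-2 and shn. Of all genes, 16.0% rose and 18.2% fell in St15 mof males, 12.7% rose and 13.3% fell in St15 mof females, and 10.2% rose and 13.2% fell in S2 cells, so the list counts at St15 and in S2 cells are near or below these shares.

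Of 15 tested EGF receptor pathway genes (16 listed), 10 rose at St7 in mof males and 6 in mof females, and none fell, with list medians of 0.34 and 0.27. They included the ligand gene vn (0.72 ± 0.20 in males and 1.08 ± 0.23 in females), the ETS factor gene pnt in males (0.54 ± 0.09) and the MAP kinase gene rl in females (0.73 ± 0.12). At St5 1 of 15 rose and 1 fell in each sex. Ras85D fell in both, by 0.83 in mof males and by 1.35 in mof females, while Krn rose in males (0.56 ± 0.17) and Egfr in females (2.47 ± 0.48). At St15 3 of 16 rose in mof males, near the share of all genes, and 1 fell, with S and Egfr among those that rose and the X-linked kinase gene Dsor1 the one that fell (−0.55 ± 0.09). In St15 mof females none of the 16 passed by edgeR, with 1 at an unadjusted p under 0.05 and 0 by DESeq2. In S2 cells the feedback inhibitor gene aos rose (0.57 ± 0.05) and drk fell by 0.15.

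Of 12 maternal Dorsal pathway genes, the receptor gene Tl rose at St7 in mof males (0.73 ± 0.18) and mof females (1.05 ± 0.20), and no other of the 10 tested rose in either sex, while pip fell in males (−1.84 ± 0.52). Of 11 other neurogenic and midline genes 4 rose at St7 in each sex, led by wor, a Snail family gene of neural stem cells. wor had 0, 88, 1, 195, 153 and 0 counts in the 6 mof males and 0 to 37 in control males (3.92 ± 1.33, adjusted p = 0.0343, edgeR). It had 424, 431, 51 and 0 counts in the 4 mof females and 0 to 7 in control females (6.89 ± 1.65, adjusted p = 0.004). The groups overlapped in both sexes, with 3 of the 6 mof males and 3 of the 4 mof females above every control of their sex. The proneural genes ac in males (0.57 ± 0.20) and l(1)sc in females (0.82 ± 0.24) came next. Of 11 other dorsal ectoderm and amnioserosa genes 1 rose in each sex at St7, tup in males (0.25 ± 0.08) and Ance in females (0.65 ± 0.16). Of 9 mesoderm genes, the ventral neighbours of these territories, 3 rose in each sex at St7. The summed level of the 9 genes overlapped, at 1415 to 1763 CPM in mof males against 1327 to 1610 CPM in control males. All genes of the neurogenic, dorsal ectoderm and mesoderm lists were tested at St7. Of all 8717 genes tested there, 866 rose in mof males and 959 in mof females. Whether any list held more risen genes than this background was not tested.

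The genes outside the 10 that lay nearest the mean profile of the members were found by the root mean square difference of centred log2(CPM + 1) values. These values were not scaled to a common spread, so nearness does not show that a gene rises and falls with the members. Over the 12 St5 libraries and 7117 genes these were CG14561 (0.21), Mco1 (0.231), the gap gene gt (0.24), os (0.251) and CG9775 (0.255), while the members themselves lay 0.327 (tld) to 1.97 (scw) from their own mean. Over the 23 St7 libraries and 8431 genes they were l(2)k09913 (0.117), r-l (0.136), Gyg (0.141), wds (0.141) and the mesoderm gene twi (0.144), and the members lay 0.126 (sog) to 1.03 (zen) from it. These differences are a description over libraries that also differ in sex and, at St5, in the egg and early zygotic markers.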

How the data were processed

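Gene counts of 54 RNA-seq libraries were taken as the authors deposited them, in 4 tables of raw counts, of which 3 hold an embryo stage and 1 the S2 cells. Poly(A) RNA was made into libraries with a stranded TruSeq kit, per the labels' protocols, and the submitters' processing notes name the dm6 build. Neither the aligner nor the counting program is named, and whether strand was used in counting is not stated, so reads of overlapping genes on opposite strands (scw, rho, brk, vnd) may not be told apart. The members share 0 exon bases with those neighbours in the annotation.

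All 17558 rows of each table were kept; 23 St5 rows whose gene another row already matched by symbol were left without annotation. St5 symbols were matched to Ensembl 115 (dm6 coordinates) for the chromosome, 17329 of 17558 with one, and the IDs of the other tables matched for 17252 genes. Merged exon lengths of that annotation gave RPKM. CPM was computed from each library's total, and summed marker levels use it.

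Each table was fitted once over all its groups with edgeR 4.0.16 (R 4.3.3, limma 3.58.1): edgeR's expression filter, TMM scaling, a group means design and the robust quasi-likelihood test, with Benjamini-Hochberg adjustment over all genes tested in a comparison and a threshold of 0.05. The difference of the mof effect between the sexes is the interaction contrast. The steps were tested on simulated data. The alternatives were DESeq2 1.42.0, RLE scaling, TMM factors from autosomal genes, no filter, a minimum mean of 10 CPM, a replicate block, no robust option, fits restricted to the pair of groups in question, each library left out in turn, and the 2 doubted St5 males left out together; a crossed replicate block in St5 females was added after seeing the data. Samples sharing a number were not paired by the labels, and the main fits have no block.

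The members and lists were chosen with earlier results of these data known. All 10 members and mof are named everywhere. From each further list up to 2 genes per comparison and direction with the largest absolute fold change among those that passed could be named, with the 5 genes nearest the members' mean profile at St5 and at St7. No DNA or protein sequence was used here. Precision is limited by depth, and floors cover counting error only.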

Additional observations from a re-analysis of the deposited data

Results flagged for a closer look

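In each group of 4 to 10 libraries the highest and lowest CPM of every member was set against its neighbour by Dixon's test, 69 groups in all, of which 5 stood out. Chance alone marks about 1 in 20 groups. At St5, control male 4 was low in tsg at 45.71 CPM, with the next library at 65.03 CPM. Control male 3, the St5 control male with the highest egg transcript sum, was high in scw at 88.67 CPM, with the next at 32.14 CPM. At St7, mof female 4 was high in zen at 18.43 CPM, with the next at 4.783 CPM. At St15, mof female 3, the female pool with 40 Y-linked counts, was low in dpp at 37.8 CPM against 39.51 CPM in the next library. The same pool was high in scw at 0.04743 CPM, which is 1 count where the other 3 pools had 0.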

How the results depend on the processing

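No member reversed its direction in a called result. In St5 males the count of members that passed was 1, but 0 with the 10 CPM filter, 2 with a replicate block (sog and brk, not tld) and 0 without mof males 1 and 2. In St5 females it was 3, but 6 in a fit of only the groups compared and 6 with DESeq2. vnd was not among those of the restricted fit (adjusted p = 0.08), of the replicate block (0.0967) or of the crossed block (0.0872). The St5 sex difference of the mof effect had 0 members, but 1 with DESeq2. In St7 males 1 became 0 with no low count filter, in a fit restricted to the groups compared and with the replicate block, while in St7 females 0 became 1 with only the groups compared and with DESeq2. In St15 females 2 became 1 with no filter, with the 10 CPM filter, in the restricted fit and with the replicate block. In St15 controls 1 became 0 with the replicate block. The cause was not tested.

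Leaving out single libraries gave 0 to 2 members in St5 males, 1 to 2 in St5 females, 7 to 8 in St5 controls, 0 to 2 in St7 males, 0 to 2 in St7 females, 1 in every fit of St7 controls, 1 to 2 in St15 males, 0 to 1 in St15 females and 0 to 1 in St15 controls. S2 cells kept a count of 1. The sex difference of the mof effect gave 0 to 1 at St5, 0 at St7 and 0 to 1 at St15. Of 1138 member values with a library left out, 1097 stayed on their side of the threshold, 32 lost the call and 9 gained it. Of 886 under the other alternatives, 855 stayed, 14 lost it and 17 gained it. Both totals consist mostly of members that did not pass in the main fits and had no call to lose. The shares that stayed therefore do not measure how often a call held. Over both kinds of alternative, tld kept its call in 8 of 17 in St5 males and in 5 of 14 in St15 females. vnd kept it in 14 of 14 in St15 males, and brk in 21 of 21 in St7 controls.

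Same-numbered libraries did not deviate together in every pair of any comparison, so the numbers were not used as pairs. In St5 females the correlation of the deviations was −0.266 in both pairs. With 2 libraries a group both pairs necessarily share 1 value, and its sign depends on the numbering alone. A replicate block with the numbers of the 2 mof females crossed was chosen after seeing the data. It gave 4 members and 250 genes in all, against 4 and 190 with the numbers as labelled. The count of all genes that passed moved by over 1.5 times as follows. In St5 males 1260 became 2080 with DESeq2, 587 with the 10 CPM filter, 741 with the replicate block, 823 with only the groups compared and 586 without mof males 1 and 2. In St5 females 368 became 1965 with only the groups compared, 1001 with DESeq2 and 190 with the block. In St5 controls 5642 became 3610 with the 10 CPM filter. In St7 males 2196 became 1459 and in St15 females 2777 became 1801 with that filter. In St15 controls 139 became 289 with DESeq2 and 23 with the block. For the St5 sex difference 11 became 337 with DESeq2, 6 with factors from autosomal genes, 3 with the 10 CPM filter, 0 with the block and 0 without mof males 1 and 2. At St7 depth, scw had at most 18 counts, and small changes in it were not detectable.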
